A study of Homo sapiens with 6 samples.

Results

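TXNIP and its relatives were followed in HEK293 cells after inhibition of phosphatidylinositol 4-kinase alpha. The set held 7 genes of the 63140 in the count table, found by matching the symbol. TXNIP, ARRDC1, ARRDC2, ARRDC3 and ARRDC4 encode alpha-arrestins. The others were thioredoxin (TXN), which TXNIP binds, and MLXIPL, which encodes the carbohydrate-responsive transcription factor ChREBP. The series comprised 3 libraries from cells given the solvent dimethyl sulfoxide (DMSO) and 3 from cells exposed for 24 h to GSK-A1 at 100 nM, an inhibitor of the PI4KA kinase. HEK293 is an established line from human embryonic kidney, and all cultures were grown in DMEM with fetal bovine serum and treated when confluent. The labels call the replicates biological but do not say how the cultures were separated, so p-values measure the spread between these 6 libraries.

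Alpha-arrestins are adaptors with an arrestin fold. Most carry short proline-rich motifs with which they recruit ubiquitin ligases of the NEDD4 family to membrane cargo. TXNIP additionally binds reduced thioredoxin and restrains glucose uptake through the transporter GLUT1 (SLC2A1). Transcription of TXNIP and ARRDC4 is known to rise when MLX, together with MondoA (MLXIP) or ChREBP, senses glucose phosphates, and TXNIP is also a known target of forkhead (FOXO) factors.

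The promoters of TXNIP, ARRDC3 and ARRDC4 are shown because TXNIP and ARRDC3 were the members whose transcripts fell, whereas ARRDC4 shares the glucose-sensing regulator with TXNIP. Each sequence is the stretch of 250 bases before a RefSeq start site (GRCh38.p14), 5′ to 3′ on the strand of the gene. Capitals mark any match, on either strand, to 4 motifs: a spaced pair (CACG, then 7 bases of any kind, then CACG), which is the spacing of a carbohydrate response element, the E-box CACGTG, the forkhead core GTAAACA, and CCAAT. TXNIP and ARRDC3 each have 2 listed starts, and the window shown is the one with the forkhead letters. The window of the first ARRDC3 start held a CCAAT at -241, and that of the second TXNIP start held none of the motifs. The TXNIP window is chr1:145996580-145996829 on the minus strand, the ARRDC3 window, at the second listed start of the gene, is chr5:91380098-91380347 on the minus strand, and the ARRDC4 window is chr15:97960453-97960702 on the plus strand.
TXNIP: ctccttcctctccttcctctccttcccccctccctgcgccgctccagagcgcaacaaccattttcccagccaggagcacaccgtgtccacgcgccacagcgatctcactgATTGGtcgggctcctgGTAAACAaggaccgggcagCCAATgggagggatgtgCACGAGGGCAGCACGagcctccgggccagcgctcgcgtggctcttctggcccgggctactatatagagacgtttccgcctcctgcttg
ARRDC3: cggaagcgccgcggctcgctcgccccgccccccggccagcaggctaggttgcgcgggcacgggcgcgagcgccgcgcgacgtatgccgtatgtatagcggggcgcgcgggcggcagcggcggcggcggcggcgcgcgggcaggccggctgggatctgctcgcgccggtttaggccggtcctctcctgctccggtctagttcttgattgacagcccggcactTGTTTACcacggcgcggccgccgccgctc
ARRDC4: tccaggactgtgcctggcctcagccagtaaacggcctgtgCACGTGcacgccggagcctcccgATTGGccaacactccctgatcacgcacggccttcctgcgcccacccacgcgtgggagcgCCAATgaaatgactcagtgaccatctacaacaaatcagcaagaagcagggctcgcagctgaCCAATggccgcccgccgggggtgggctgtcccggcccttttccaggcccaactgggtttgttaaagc

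In the TXNIP window the spaced pair began at position -88 from the start, CCAAT matches began at -105 and -140, and GTAAACA began at -124. The spaced pair was found in 0.609% of 35116 promoter windows of 300 bases (250 before and 50 after a start). It was not found in the windows of the other 6 members. Only the exact letters were searched, so a response element that differs from them would be missed. In ARRDC4 the matches were 1 E-box, which 7.26% of windows held, and 3 CCAAT matches, a motif that 34.6% held. GTAAACA was in 3.42% of windows and, among the members, in TXNIP and in the second window of ARRDC3. A match describes letters in the window and no factor was measured on it. Of 402 tested genes with GTAAACA in a window, 11.2% were called lower with GSK-A1 and 19.7% higher, beside 11.5% and 13.7% of the 11535 tested genes that had a window. Of 134 tested genes with the spaced pair, 15.7% were called lower and 11.2% higher.

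Total counts per library ranged from 33040178 to 47777233, and all 7 members passed the filter on low counts. GSK-A1 replicate 2 stood apart from the other libraries of its group. The chi-square statistic per gene was 11 and 15.5 for its pairs with GSK-A1 replicates 1 and 3, against 2.88 for that remaining pair and 1.84 to 3.14 for the DMSO pairs. The summed level of 7 HEK293 markers was 2022 to 2095 CPM (normalised counts scaled to a common library total) with DMSO and 2168 to 2360 CPM with GSK-A1, mostly VIM and NEFL. VIM rose by 0.17 on the log2 scale. KRT8 (0.11) was called higher and PAX2 (2.71 and 2.00 CPM) lower, but KRT8 lost its call in 6 of 17 alternatives and PAX2 in 5, and NEFM and INA did not pass the filter. Of 8 markers of blood, liver, endothelial, muscle and epithelial cells, 0 passed, their sum stayed at or below 0.638 CPM in every library, and HBB had no count.

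Of the 7 members, 2 fell and 0 rose with GSK-A1 (edgeR, adjusted p under 0.05). TXNIP and ARRDC3 transcripts fell to 75.7% and 71.8% of their level with DMSO. Over all 16754 tested genes, 22.9% were called, 10.9% lower and 12.0% higher, so 2 of 7 is near the background share. The groups did not overlap in 2 members, against 40.5% of the tested genes. The median log2 fold change was 0.03 over the members and -0.01 over all tested genes.

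TXNIP (ENSG00000265972, chr1:145992435-145996600, minus strand, 5 merged exons in GENCODE release 29) stood at 32.1, 42.5 and 37.1 CPM in the DMSO libraries (replicates 1, 2 and 3) and 27.7, 30.8 and 26.1 CPM in the GSK-A1 libraries, in the same order. All 3 treated libraries lay below all 3 controls, although GSK-A1 replicate 2 and DMSO replicate 1 were close. The log2 fold change was -0.40 ± 0.10 (SE; 95% interval -0.64 to -0.16; edgeR adjusted p = 0.0262). The DMSO values were the most scattered of the family, with a coefficient of variation of 13.9%, against 2.33% to 6.29% in the other members. The call was lost without a filter on low counts (edgeR adjusted p = 0.166) and in 4 of the 6 fits that left out 1 library: without DMSO replicate 3 (0.0672) or GSK-A1 replicate 1 (0.0808), 2 (0.112) or 3 (0.0584). The log2 fold change in those 4 fits was -0.46 to -0.35.

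ARRDC3 (ENSG00000113369, chr5:91368724-91383359, minus strand, 10 merged exons) encodes an adaptor known for the trafficking of the beta2-adrenergic receptor. It was at 8.76, 9.85 and 9.72 CPM in the DMSO libraries (replicates 1, 2 and 3) and 6.33, 7.73 and 6.33 CPM in the GSK-A1 libraries, in the same order. The groups did not overlap, and GSK-A1 replicate 2 was the treated library nearest the controls. The log2 fold change was -0.48 ± 0.09 (SE; 95% interval -0.67 to -0.29; edgeR adjusted p = 0.00134). The call held in all 17 alternative fits, with values from -0.57 to -0.42, and without GSK-A1 replicate 2 the log2 fold change was -0.57 (edgeR adjusted p = 3.91e-07). The depth behind it was 228 to 448 counts per library, the lowest of the members.

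**Figure D1:**
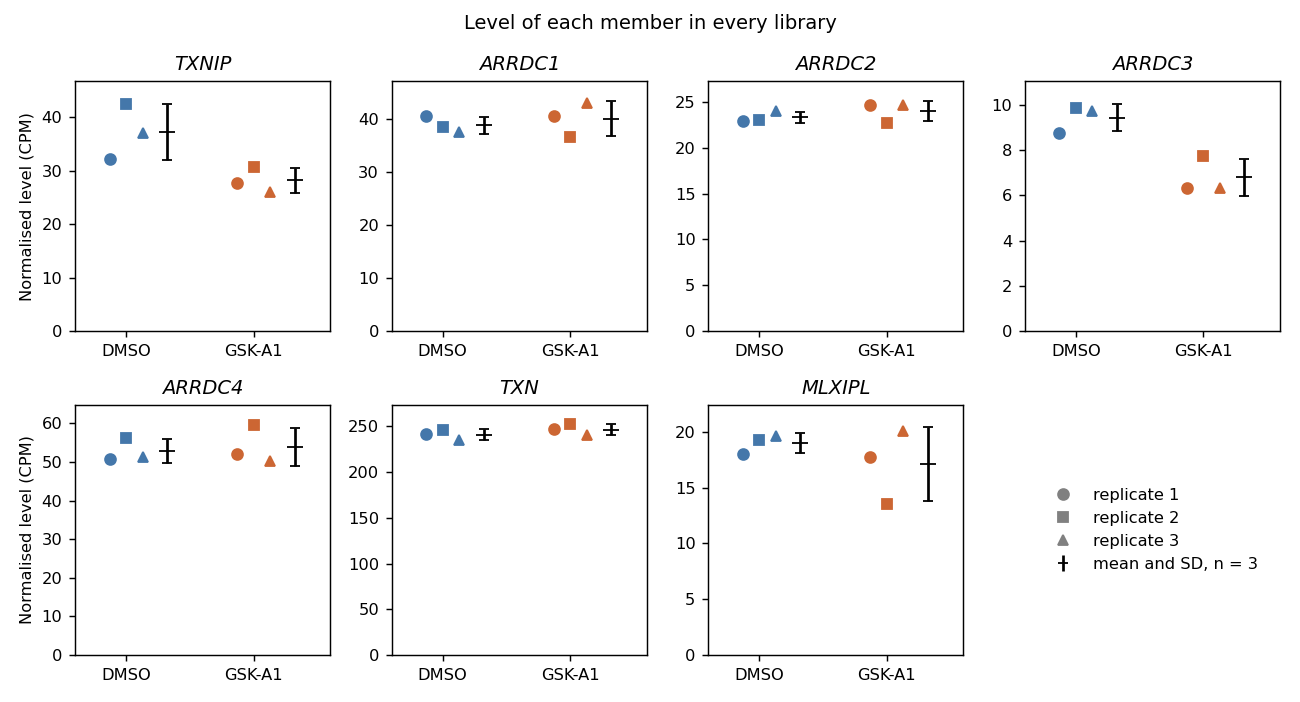
Normalised level (CPM, linear axis from 0) of each of the 7 members in every library, DMSO in blue and GSK-A1 in orange, with the mean and SD of 3 libraries in black. TXNIP and ARRDC3 are the panels in which the 3 treated libraries lie below the 3 controls, and in MLXIPL the treated libraries are spread by GSK-A1 replicate 2 at 13.6 CPM.

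ARRDC4 (ENSG00000140450, chr15:97960698-97973838, plus strand, 8 merged exons), the family member nearest TXNIP in its known glucose-dependent control, was not called. It stood at 50.8, 56.3 and 51.4 CPM in the DMSO libraries (replicates 1, 2 and 3) and 52.0, 59.5 and 50.2 CPM in the GSK-A1 libraries, in the same order. The treated values spanned the whole DMSO range. The log2 fold change was 0.03 ± 0.06 (SE; 95% interval -0.10 to 0.16; edgeR adjusted p = 0.791), and the difference from TXNIP was not tested. Its sign turned without GSK-A1 replicate 2 (-0.04), without DMSO replicate 1 (-0.0021) and under upper-quartile factors (-0.01). Per length, ARRDC4 stood at 1.18 to 1.41 times TXNIP in the DMSO libraries and at 1.67 to 1.72 times in the GSK-A1 libraries.

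ARRDC1 (ENSG00000197070, chr9:137605654-137615360, plus strand), known for budding of vesicles at the plasma membrane with TSG101, was at 40.6, 38.5 and 37.5 CPM with DMSO and 40.6, 36.6 and 43.2 CPM with GSK-A1 in replicates 1 to 3. The groups overlapped, and the log2 fold change was 0.04 ± 0.06 (SE; 95% interval -0.08 to 0.16; edgeR adjusted p = 0.624). ARRDC2 (ENSG00000105643, chr19:18001132-18014102, plus strand), another adaptor of the family, was at 22.9, 23.1 and 24.0 CPM with DMSO and 24.7, 22.7 and 24.7 CPM with GSK-A1, equal to a log2 change of 0.05 ± 0.05 (SE; 95% interval -0.07 to 0.16; edgeR adjusted p = 0.587). With each library's GC trend removed, an alternative added after the data were seen, both genes were called higher, at 0.14 (edgeR adjusted p = 0.0185) and 0.13 (0.0436). The GC content of their longest transcripts was 62.8% and 60.2%, and that of MLXIPL, which was not called in that fit (-0.05, edgeR adjusted p = 0.72), was 63.5%. Without GSK-A1 replicate 3 the ARRDC1 value was -0.0064. ARRDC1 shares 4.79% of its exonic length with AL590627.2 on its own strand, and ARRDC2 shares 9.53% with AC020904.3 on the opposite strand, so both counts are less certain.

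Thioredoxin itself, the protein that TXNIP binds, was by far the most abundant member. TXN (ENSG00000136810, chr9:110243811-110256640, minus strand) stood at 242, 246 and 235 CPM in the DMSO libraries (replicates 1, 2 and 3) and 247, 252 and 240.2 CPM in the GSK-A1 libraries, in the same order. The groups overlapped within a narrow range, and the log2 fold change was 0.03 ± 0.04 (SE; 95% interval -0.04 to 0.11; edgeR adjusted p = 0.558). Upper-quartile factors turned its sign (-0.0091). Of the 50-base stretches in its longest transcript, 4.63% were shared with other genes, the most (2.07%) with the pseudogene TXNP6, so its counts are less certain. The level of TXN per length was 18.4 to 23.9 times that of TXNIP in the DMSO libraries and 26.03 to 29.21 times in the GSK-A1 libraries. The libraries of the 2 groups did not overlap in this ratio, as in TXNIP alone. TXNIP was the member that had fallen, so the ratio restates that fall and is no separate result.

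MLXIPL (ENSG00000009950, chr7:73593194-73624543, minus strand) was at 18.0, 19.3 and 19.7 CPM in the DMSO libraries (replicates 1, 2 and 3) and 17.8, 13.6 and 20.1 CPM in the GSK-A1 libraries, in the same order. GSK-A1 replicate 2 lay below every other library, while the remaining treated libraries fell on both sides of the DMSO values. The log2 fold change was -0.14 ± 0.12 (SE; 95% interval -0.41 to 0.13; edgeR adjusted p = 0.445) and was -0.0041 without that library. Without GSK-A1 replicate 3 it was -0.25 (edgeR adjusted p = 0.0542). The genes most like MLXIPL over the 6 libraries were ND1 and COX1 of the mitochondrial genome, at a root mean square difference of 0.019 and 0.030 on the centred log2 CPM scale, and CENATAC (0.031). Their part in the MLXIPL values was not tested.

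**Figure D2:**
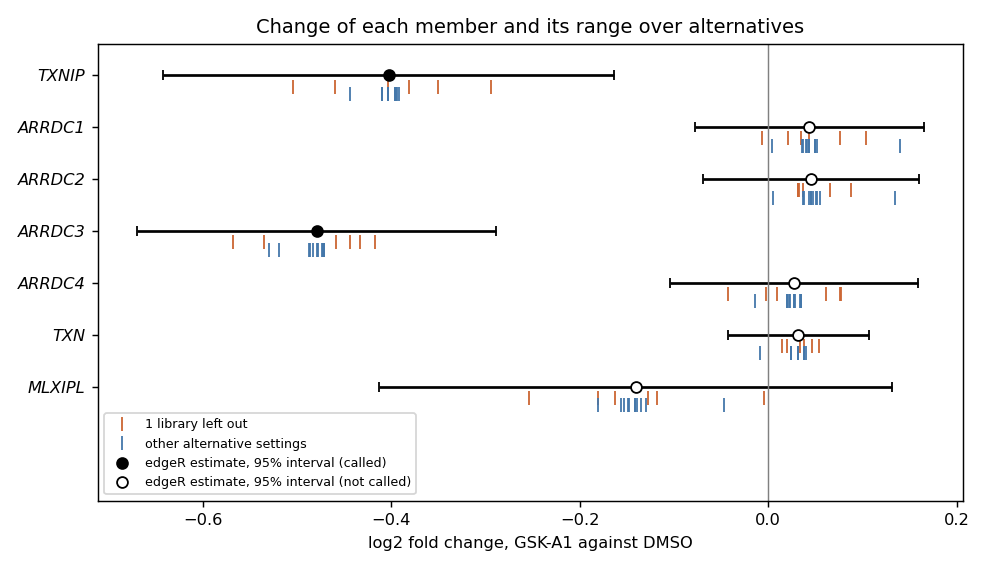
Log2 fold change of GSK-A1 against DMSO for each member with its 95% interval (filled points were called), above ticks for the fits that left out 1 library (orange) and the other alternatives (blue). The TXNIP and ARRDC3 estimates stayed below 0 throughout, from -0.50 to -0.29 and from -0.57 to -0.42, while ARRDC4, ARRDC1 and TXN had ticks on both sides of 0.

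Levels were compared between members per length of merged exons, in RPKM (CPM per kilobase). With DMSO the order was TXN at 211 ± 5 RPKM, ARRDC4 at 12.97 ± 0.75, TXNIP at 10.3 ± 1.4, ARRDC1 at 10.2 ± 0.4, ARRDC2 at 5.03 ± 0.13, MLXIPL at 3.94 ± 0.18 and ARRDC3 at 1.91 ± 0.12 (SD, n = 3). TXNIP and ARRDC1 did not differ beyond their spread. The length used matters: with the longest transcript in place of merged exons, ARRDC4 (12.97 RPKM), TXNIP (12.7 RPKM) and ARRDC1 (12.2 RPKM) lay closer together. With GSK-A1, TXNIP stood below ARRDC1, at 7.77 ± 0.65 and 10.5 ± 0.9 RPKM, as it already did in DMSO replicate 1 (8.854 and 10.63 RPKM). TXNIP made up 25.4% ± 2.3 of the summed alpha-arrestin level with DMSO and 20.4% ± 1.2 with GSK-A1, and ARRDC3 4.74% ± 0.18 and 3.61% ± 0.34 (SD, n = 3). The sum of the 5 alpha-arrestins was 40.4 ± 2.0 and 38.1 ± 0.9 RPKM, with overlapping groups.

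**Figure D3:**
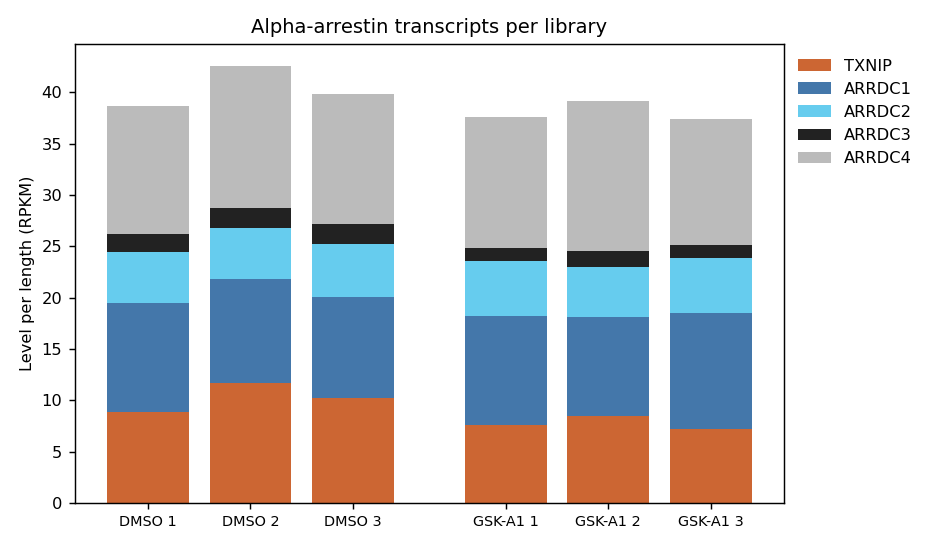
Level per length of merged exons (RPKM, linear axis from 0) of the 5 alpha-arrestins, stacked for each library. The TXNIP segment is 8.85 to 11.7 RPKM in the DMSO libraries and 7.201 to 8.485 RPKM in the GSK-A1 libraries, while ARRDC4 remains the largest segment in all 6.

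Neighbours along the chromosome were read to see whether the falls extended beyond the genes. Beside TXNIP, the nearest tested genes were POLR3GL, a subunit of RNA polymerase III, with a log2 change of 0.06 (edgeR adjusted p = 0.667), and ENSG00000233396 (-0.19, adjusted p = 0.201). On 1 side of ARRDC3, the noncoding LUCAT1 was at 0.238 and 0.450 CPM (0.86 ± 0.34, SE; edgeR adjusted p = 0.0747). On the other, the antisense transcript ARRDC3-AS1 shares 2.94% of the exonic length of ARRDC3 on the opposite strand. Its level was 2.22 CPM with DMSO and 1.70 CPM with GSK-A1, equal to a log2 change of -0.36 ± 0.15 (SE; edgeR adjusted p = 0.0946). The strand setting of the counting is not given in the sources used here, so reads over the shared stretch may be assigned to either gene. ARRDC1-AS1, which shares 0.759% of the exonic length of ARRDC1, was at 25.9 and 23.8 CPM (-0.12 ± 0.06, SE; edgeR adjusted p = 0.154). Beside TXN, PALM2AKAP2 rose by 0.26 and SVEP1 fell by 0.24 on the log2 scale (edgeR adjusted p = 6.06e-04 and 0.0180), and beside MLXIPL, VPS37D fell by 0.34 (0.0147).

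Among genes outside the family with a mean of at least 5 CPM, those most like TXNIP over the 6 libraries were TOX2, LTBP2 and HTRA1, at root mean square differences of 0.072, 0.076 and 0.078 on the centred log2 CPM scale, where TXNIP itself varied by 0.24. Those most like ARRDC3 were B3GAT2, GNG2 and TIGD2, at 0.052, 0.062 and 0.064, where ARRDC3 varied by 0.26. All 6 were themselves called lower, with log2 fold changes from -0.47 to -0.29. The search used the libraries of both groups, so genes picked for closeness share the fall, and this is no separate result. The gene most like ARRDC2 was MLXIP, at 0.0079. The search covered 10946 genes, and likeness over 6 libraries of 2 groups is a description.

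Neither MondoA nor MLX, which act on TXNIP and ARRDC4, was called at the transcript level. MLXIP, which encodes MondoA, stood at 152 ± 4 CPM with DMSO and 155 ± 7 CPM with GSK-A1 (SD, n = 3), equal to a log2 change of 0.03 ± 0.04 (SE; 95% interval -0.05 to 0.11; edgeR adjusted p = 0.636). MLX, the shared partner, was at 88.4 ± 1.4 and 89.4 ± 1.7 CPM, equal to a log2 change of 0.02 ± 0.04 (SE; 95% interval -0.06 to 0.10; edgeR adjusted p = 0.794). Both signs turned under upper-quartile factors (-0.01 and -0.02), and MLXIP was called higher after the GC correction (0.11, edgeR adjusted p = 0.0178). Of the 12 genes of the wider MLX, MAX and MYC network, all tested, 3 rose and 0 fell: MXD1, a repressor that pairs with MAX, by 0.46, MYC, the growth-promoting partner of MAX, by 0.28, and MXI1 by 0.18. The share called, 25%, was near the 22.9% of all tested genes, and the median of this list was 0.01. MXI1 was no longer called without DMSO replicate 1 (edgeR adjusted p = 0.0592).

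Genes known as targets of ChREBP or MondoA did not follow 1 direction. Of 17 listed, 13 were tested, and 6 fell and 1 rose, with a median log2 fold change of -0.07. The share called was 53.8% beside 22.9% of all tested genes. The gene lists were chosen with earlier results of these data known, so their shares only describe the genes listed. The falls included TKFC, a kinase of fructose breakdown, from 41.2 ± 0.9 to 32.1 ± 1.9 CPM (SD, n = 3), and the lipid synthesis enzymes SCD and FASN, at -0.33 and -0.23. PFKFB2, ACLY and GPD1 were the other 3. GPD1, at 5 to 20 counts per library, was no longer called without a filter on low counts (edgeR adjusted p = 0.0504) or in 5 of the 6 fits that left out 1 library (0.0737 to 0.097). PFKFB2 was not called without DMSO replicate 1 (0.0897) or GSK-A1 replicate 1 (0.0521), nor ACLY after the GC correction (0.051). HK2, hexokinase 2, rose from 48.1 ± 0.7 to 58.7 ± 3.3 CPM (SD, n = 3), equal to a log2 change of 0.29 ± 0.05 (SE; edgeR adjusted p = 4.91e-04). KLF10 and PFKFB3 stood at 0.0035 and 0.08 and were not called. FGF21, at 47 to 89 counts per library, was not called either, at 0.50 ± 0.20 (SE; edgeR adjusted p = 0.0921). The list had 2 genes called higher without a filter on low counts or without DMSO replicate 3.

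Glucose uptake, the process TXNIP restrains, was not measured. Transcripts of 18 genes of glucose uptake and phosphorylation were read, of which 11 were tested. Of the tested genes, 4 rose and 1 fell, with a median log2 fold change of 0.09. The share called was 45.5% beside 22.9% of all tested genes, in a list chosen with earlier results known. Upper-quartile factors gave 4 higher and 4 lower. SLC2A1, the transporter bound by TXNIP, was at 54.3 ± 2.8 CPM with DMSO and 57.9 ± 0.6 CPM with GSK-A1 (SD, n = 3), equal to a log2 change of 0.09 ± 0.05 (SE; edgeR adjusted p = 0.155). Leaving out GSK-A1 replicate 2 (0.10, edgeR adjusted p = 0.0392) or removing the GC trend (0.15, 0.0108) made it a call. Calls over all genes went from 3835 to 4890 without GSK-A1 replicate 2. The rises were in HK2, in HK1 (0.15) and in the transporters SLC2A12 (0.23) and SLC2A13 (0.24), the latter a carrier of inositol. G6PC3, a glucose phosphatase, fell by 0.14 on the log2 scale, a call lost without any 1 of the DMSO replicates (edgeR adjusted p = 0.0611 to 0.0882) or without GSK-A1 replicate 3 (0.0713). HK1 was not called without DMSO replicate 2 (0.0693), where the calls of this list became 3 and those over all genes 2213.

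Of the 9 NEDD4-family ubiquitin ligases, to which alpha-arrestins bind, 4 rose and 0 fell, with a median of 0.10. The share called was 44.4% beside 22.9% of all tested genes, in a list chosen with earlier results known. NEDD4L rose from 48.4 ± 0.1 to 62.7 ± 2.6 CPM (SD, n = 3), equal to a log2 change of 0.37 ± 0.04 (SE; edgeR adjusted p = 2.41e-05). SMURF2 rose by 0.27 and WWP1 by 0.23. ITCH, the ligase known to mark TXNIP for degradation, rose from 24.5 ± 1.4 to 28.1 ± 2.1 CPM (SD, n = 3), equal to a log2 change of 0.19 ± 0.06 (SE; edgeR adjusted p = 0.0336). The ITCH call was lost under upper-quartile factors (edgeR adjusted p = 0.0776) and without DMSO replicate 1 (0.116) or 3 (0.154).

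Of 17 genes of the thioredoxin system, all tested, 1 rose and 2 fell, with a median log2 fold change of 0.0084. The share called, 17.6%, was below the 22.9% of all tested genes. PRDX2, a peroxiredoxin that thioredoxin recharges, went from 600 ± 10 to 529 ± 16 CPM (SD, n = 3), equal to a log2 change of -0.18 ± 0.03 (SE; edgeR adjusted p = 0.00127). TXN2, the mitochondrial thioredoxin, fell by 0.14 and GLRX3, a glutaredoxin with a thioredoxin-like domain, rose by 0.19 on the log2 scale. The TXN2 call was lost without DMSO replicate 1 (edgeR adjusted p = 0.139) or 2 (0.0921), without GSK-A1 replicate 1 (0.0925) and after the GC correction (0.208). TXNRD1, the cytosolic reductase of TXN, was at 239 ± 13 and 256 ± 4 CPM (SD, n = 3), equal to a log2 change of 0.10 ± 0.04 (SE; edgeR adjusted p = 0.0912), and passed the threshold once GSK-A1 replicate 2 was left out (0.0372). The 3 calls became 5 without that library, where calls over all genes also rose, from 3835 to 4890, and 6 under upper-quartile factors.

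Of the other 8 genes with an arrestin fold, 5 were tested and 0 were called by edgeR or DESeq2, beside 22.9% of all tested genes in edgeR. With limma-voom 1 was called, and 2 had an unadjusted p under 0.05 in edgeR. ARRDC5 had no count in any library. VPS26C, an arrestin-fold subunit of an endosomal sorting complex, was nearest to a call, at 55.9 ± 1.8 and 60.6 ± 0.6 CPM (SD, n = 3; log2 fold change 0.12 ± 0.04, SE; edgeR adjusted p = 0.0503). The beta-arrestin ARRB1, an adaptor of G protein-coupled receptors, stood at 12.9 ± 0.5 and 11.3 ± 1.3 CPM (SD, n = 3; log2 fold change -0.19 ± 0.08, SE; edgeR adjusted p = 0.0932). Of 8 genes that act with ARRDC1 in vesicle budding, 2 rose, VPS4B by 0.21 and VPS37A by 0.22, and 0 fell, a share of 25% that was near the 22.9% of all tested genes. TSG101, the protein that ARRDC1 binds, was at 45.9 ± 0.6 and 49.9 ± 1.3 CPM (SD, n = 3), equal to a log2 change of 0.12 ± 0.04 (SE; edgeR adjusted p = 0.0582). The 2 calls of this list became 4 when GSK-A1 replicate 2 was left out, where calls over all genes went from 3835 to 4890. After the GC correction they became 5. Of 12 energy-sensing kinases and mTORC1 genes, 3 rose and 3 fell. The share called was 50% beside 22.9% of all tested genes, in a list chosen with earlier results known. MTOR, the kinase of mTORC1, fell by 0.15, PRKAB1, an AMPK subunit, by 0.18, and STK11, the kinase upstream of AMPK, by 0.14 on the log2 scale. The STK11 call was also lost without GSK-A1 replicate 1 (edgeR adjusted p = 0.074) and after the GC correction (0.443). The 6 calls of this list became 2 without any 1 of the DMSO replicates, where calls over all genes fell from 3835 to between 2163 and 2213.

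**Figure D4:**
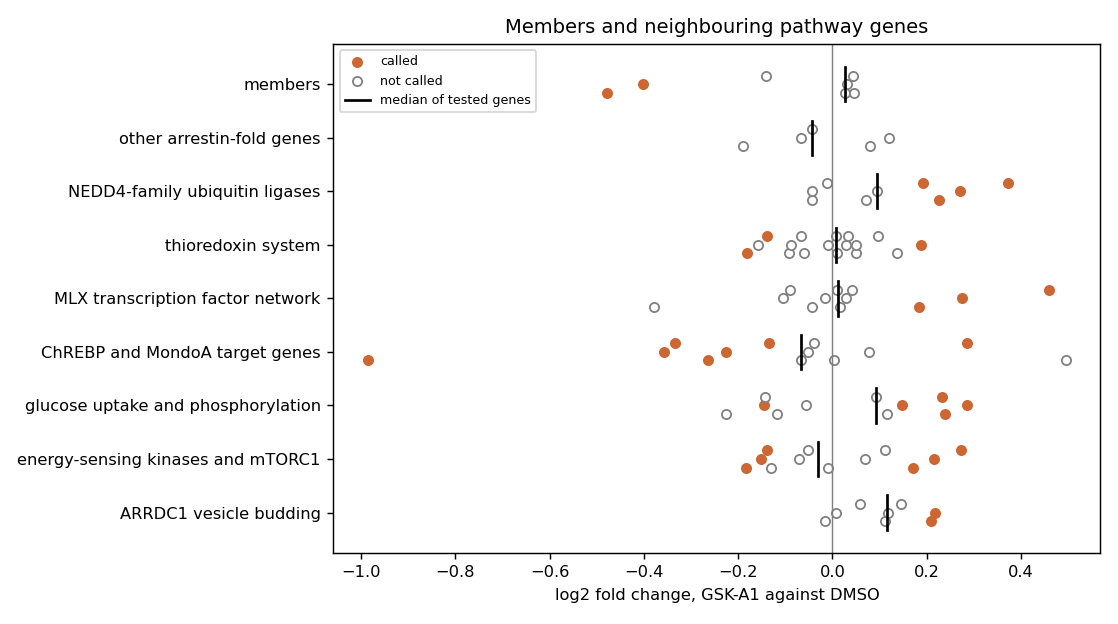
Log2 fold change of GSK-A1 against DMSO for each tested gene of the 7 members and of the 8 pathway lists, 1 point per gene, orange where called, with a black line at the median of each list. The called NEDD4-family ligases all lie above 0, while 6 of the 7 called ChREBP and MondoA targets lie below it.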

How the data were processed

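Total RNA of 6 HEK293 libraries was made into libraries with a stranded Illumina kit and sequenced on a HiSeq, per the labels' protocols, and all 6 carry the same 2 lane labels. The authors deposited 1 table of raw counts per gene, with no normalization. The submitters' processing notes name cutadapt 5.1, STAR 2.7.11b, featureCounts of Subread 2.1.1, DESeq2 1.38.0 and the build GRCh38.p13. Annotation release, strand setting and filters are not given in the sources used here.

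Genes were kept by filterByExpr (smallest count 10, smallest total 15) and tested with edgeR 4.0.16 in R 4.3.3, using TMM library factors and the robust quasi-likelihood F test. P-values were adjusted by Benjamini-Hochberg over all 16754 genes tested and called under 0.05. The code was tested on simulated data, in which 200 of 16754 genes were changed. Their changes were larger than the median size of the called changes in the real data, 0.239 on the log2 scale. Unchanged genes made up 9.39% of the simulated calls, more than the threshold allows. With that setting the share cannot be carried over to the real calls, but calls near the threshold are less certain. DESeq2 1.42.0, limma-voom (limma 3.58.1), other library factors, filters and edgeR settings, a replicate block and leaving out each library were alternatives. Exonic lengths, GC content, positions and overlaps came from GENCODE release 29 on GRCh38, not necessarily the annotation used for counting. Promoters came from RefSeq (GRCh38.p14) and matched all 7 members by symbol. ITCH was on 2 rows, and the identifier held by GENCODE was used.

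The members and gene lists were chosen with earlier results of these data known. Named genes were every member, up to 4 called genes of each list by smallest p, 6 genes fixed by name, and for each tested member the 3 genes with the smallest root mean square difference of centred log2 CPM (prior count 2). Nearest tested neighbours, VPS26C, VIM, KRT8, PAX2, G6PC3, PFKFB2, ACLY, GPD1, KLF10, PFKFB3, FGF21, ARRB1 and TSG101 were added after their values were seen. The values of 1 gene of the energy-sensing list are not reported here.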

Additional observations from a re-analysis of the deposited data

How the results depend on the processing

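Over all genes the calls were 3835 and became 1871 at an adjusted p under 0.01, and 2163 (without DMSO replicate 1) to 4890 (without GSK-A1 replicate 2) with 1 library left out. Calls higher were 52.3% of the total, 33.3% under upper-quartile factors and 64.0% with the GC trend removed. The 2 members called became 1 without a filter on low counts (TXNIP -0.39) or at an adjusted p under 0.01, 4 with the GC trend removed (ARRDC1 0.14, ARRDC2 0.13), and 1 to 2 with 1 library left out. In those fits TXNIP ranged from -0.50 to -0.29, ARRDC4 from -0.0431 to 0.0775 and ARRDC1 from -0.0064 to 0.10. Upper-quartile factors reversed ARRDC4 (-0.0141), TXN (-0.0091), MLXIP (-0.011) and MLX (-0.024), and gave 6 thioredoxin and 8 glucose genes (4 higher, 4 lower). The other arrestin-fold genes had 1 call, lower under upper-quartile factors and higher under RLE factors, limma-voom, the legacy option or the GC correction. The last also gave 5 MLX network and 5 vesicle budding genes. With 1 library left out the calls were 0 to 1 for the other arrestin-fold genes, 2 to 5 for the thioredoxin system, 3 to 7 for glucose uptake, 2 to 7 for energy sensing and 2 to 4 for vesicle budding. The cause was not tested. ARRDC3 was called in all 17 alternatives. Of the 610 refits of the other named genes, 549 kept direction and call. With the replicate number as a block 4127 genes were called, and TXNIP (-0.39, edgeR adjusted p = 9.09e-05) and ARRDC3 (-0.47) among them. Deviations of same-numbered libraries correlated at 0.011, 0.019 and 0.032, and those of differently numbered libraries at -0.0331 to 0.0117. All of these were small, so the numbers were not taken as pairs. The GC correction was chosen after seeing the data. ARRDC3, at 228 to 448 counts, had the lowest depth of the members.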
